A study of Mus musculus with 14 samples.

Results

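The genes of the activator protein 1 (AP-1) family and of its small MAF partners were examined for binding of BMP pathway effectors in adult mouse muscle stem cells (MuSCs). The 10 genes were Fos, Fosb, Fosl1, Fosl2, Jun, Junb, Jund, Atf3, Maff and Mafk, out of 21757 protein-coding genes. They were chosen by name, with earlier results of these data known. A peak was assigned to a gene when it overlapped the canonical transcript or the 20 kb on either side of it. Over the 6 consensus peak lists, 22 pSMAD1/5/9 and 43 SMAD4 peaks lay at these genes in BMP6-stimulated cells, 5 and 22 in vehicle-treated cells, and 60 and 57 H3K27ac peaks in the respective conditions.

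MuSCs were sorted by GFP from female C57BL/6N(Tg(Pax7-EGFP)Tajb) mice aged 9 weeks, in which the Pax7 promoter drives the reporter. According to the methods, the sorted cells were first cultured in medium with serum and growth factors, and were then starved without serum. During this starvation, all cells were depleted of BMP activity for 6 h with 200 ng/mL of soluble BMPR1A. They then received 100 ng/mL of BMP6 or its vehicle, 4 mM HCl with 0.1% BSA, for 1 h. Every comparison is therefore one between cultured, starved cells with and without the ligand. After fixation in 0.1% formaldehyde for 2 min, 100000 cells per condition went into CUT&Tag, an assay in which a transposase tethered to an antibody cuts the DNA next to the bound protein. Of the 14 libraries, 12 entered the 6 lists (3 antibodies and 2 conditions, with 2 biological replicates each), and the 2 that had been made without a primary antibody were left out.

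Each list was 1 consensus of both replicates, and a site that is not listed in a condition only failed to reach an irreproducible discovery rate (IDR) of 0.05. No read counts were in the lists, so that the depth behind a peak is unknown and no test between conditions was made. Signal was compared as a rank within its own list, where rank 1 is the strongest peak, and each replicate was ranked by its own signal column. Those columns carry no replicate number and are called the first and the second column. In vehicle-treated cells, 8 of 8 MuSC markers (Pax7, Myod1, Myf5, Cdh15, Itga7, Vcam1, Des and Sdc4) had an H3K27ac peak within 2 kb of the transcription start site (TSS), against 53.0% of all genes. Of 8 markers of immune, endothelial, mesenchymal and mural cells, 1 had such a peak, Cd68, while Ptprc, Adgre1, Pecam1, Cdh5, Pdgfra, Dpp4 and Rgs5 had none.

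FOS and JUN proteins carry a basic leucine zipper, through which they pair and bind the sequence TGACTCA. Many of their genes are immediate early genes, which are transcribed within minutes after a cell is stimulated and need no new protein for it. Phosphorylated SMAD1, SMAD5 and SMAD9 transmit BMP signals to the nucleus together with SMAD4, which also serves TGF-β, and SMAD complexes can contact AP-1 proteins on DNA. In MuSCs, FOS is known as an early mark of activation after isolation or injury.

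The sequences around the strongest pSMAD1/5/9 summits of BMP6-stimulated cells are shown first, for Fos, Jun, Junb, Jund and Mafk. The rule took the 5 best ranked genes, and Mafk was added after its values had been seen. The window of Fosl2, which belongs to the 5, lies in an exon and is not printed. The Jun stretch is not centred on its summit, at 94940514, but starts 1 bp upstream of the TSS. Coordinates refer to GRCm39, and capitals mark matches to the motifs searched on both strands.
Fos, chr12:85501763-85501962, plus strand: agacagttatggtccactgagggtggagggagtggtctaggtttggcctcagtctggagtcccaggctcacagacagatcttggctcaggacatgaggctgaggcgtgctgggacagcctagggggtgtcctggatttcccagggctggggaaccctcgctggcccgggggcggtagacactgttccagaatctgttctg
Jun, chr4:94940460-94940659, plus strand: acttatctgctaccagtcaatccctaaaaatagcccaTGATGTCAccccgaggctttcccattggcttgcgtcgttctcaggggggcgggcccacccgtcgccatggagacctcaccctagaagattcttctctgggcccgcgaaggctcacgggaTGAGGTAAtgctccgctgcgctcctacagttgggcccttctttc
Junb, chr8:85706641-85706840, plus strand: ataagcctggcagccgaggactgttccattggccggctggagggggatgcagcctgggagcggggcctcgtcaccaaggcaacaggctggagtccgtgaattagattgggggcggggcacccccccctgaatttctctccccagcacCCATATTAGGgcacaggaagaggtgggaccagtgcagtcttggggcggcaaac
Jund, chr8:71151267-71151466, plus strand: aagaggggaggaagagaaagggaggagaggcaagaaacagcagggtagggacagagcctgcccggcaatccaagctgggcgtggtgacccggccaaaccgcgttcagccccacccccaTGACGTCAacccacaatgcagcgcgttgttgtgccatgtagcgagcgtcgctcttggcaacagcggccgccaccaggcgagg
Mafk, chr5:139780926-139781125, plus strand: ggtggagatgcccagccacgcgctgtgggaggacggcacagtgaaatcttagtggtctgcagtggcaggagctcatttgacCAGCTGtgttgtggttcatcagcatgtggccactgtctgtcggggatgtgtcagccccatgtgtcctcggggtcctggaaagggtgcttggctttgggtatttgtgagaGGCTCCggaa
In the Jund sequence the capitals are TGACGTCA, the cAMP response element, to which ATF, CREB and JUN proteins bind. The capitals in Junb mark a CArG box, the element of serum response factor. Mafk carried CAGCTG, an E-box of the kind that MYOD1 binds, and GGAGCC on the opposite strand, a GC-rich SMAD site. In Jun, the capitals mark TGACATCA and TTACCTCA, both on the opposite strand, which is the strand of the gene. These are the variant AP-1 sites through which JUN and ATF2 are known to act on the Jun promoter, and they were added to the search after the sequence had been seen. The TTACCTCA match lies outside the window centred on the summit. The Fos sequence held no match to any of these motifs, nor to TGACTCA, to the SMAD site GGCGCC or to the palindrome GTCTAGAC. A match is only a stretch of letters, and no occupancy was read from it.

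In BMP6-stimulated cells, 9 of the 10 genes had a pSMAD1/5/9 peak, all except Fosb, and all 10 had a SMAD4 peak. Over all protein-coding genes, 29.1% had a pSMAD1/5/9 peak and 39.3% a SMAD4 peak in the same sense. Both proteins were listed at 9 members, against 25.4% of all genes. In vehicle-treated cells, 5 members had a pSMAD1/5/9 peak (Fosl2, Jun, Junb, Jund and Mafk), where 5.97% of all genes had one, and 9 had a SMAD4 peak, against 30.8%. At a stricter IDR of 0.01, only Fosl2 and Jund had a vehicle pSMAD1/5/9 peak, so that 2 members instead of 5 were bound and 6 instead of 4 had pSMAD1/5/9 with BMP6 alone. Of all peaks in the vehicle pSMAD1/5/9 list, 14.9% passed this threshold, against 50.1% of the BMP6 list. Thus most of these genes were also on the SMAD4 list of cells without the ligand. With BMP6, the members listed went from 5 to 9 for pSMAD1/5/9 and from 9 to 10 for SMAD4. Over all genes the shares also rose, from 5.97% to 29.1% and from 30.8% to 39.3%.

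At the TSS itself the same order was found. Within 2 kb of the TSS, 8 members had a pSMAD1/5/9 peak with BMP6 (12% of all genes) and 4 with vehicle (1.74%). For SMAD4, 10 members (17.8%) were bound there with BMP6 and 7 (12.4%) with vehicle, where Fosl1, Maff and Mafk were missing. Over the whole region, that is the gene and the 20 kb on either side, a pSMAD1/5/9 peak with BMP6 and none with vehicle was found at 4 members, Fos, Fosl1, Atf3 and Maff, against 23.5% of all genes, while for SMAD4 this held for Maff only, against 12.8%.

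A further background was restricted to genes with H3K27ac at the TSS, which were 51.4% of all genes with BMP6. Among the 11191 genes whose TSS lay in an H3K27ac peak of BMP6-stimulated cells, to which all 10 members belonged, 44.8% had a pSMAD1/5/9 peak with BMP6 and 9.55% with vehicle. For SMAD4 the shares were 59.1% and 47.1%. This comparison was added after the data had been seen, and the counts of 9 and 5 members for pSMAD1/5/9 and of 10 and 9 for SMAD4 stand beside it as before.

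**Figure D1:**
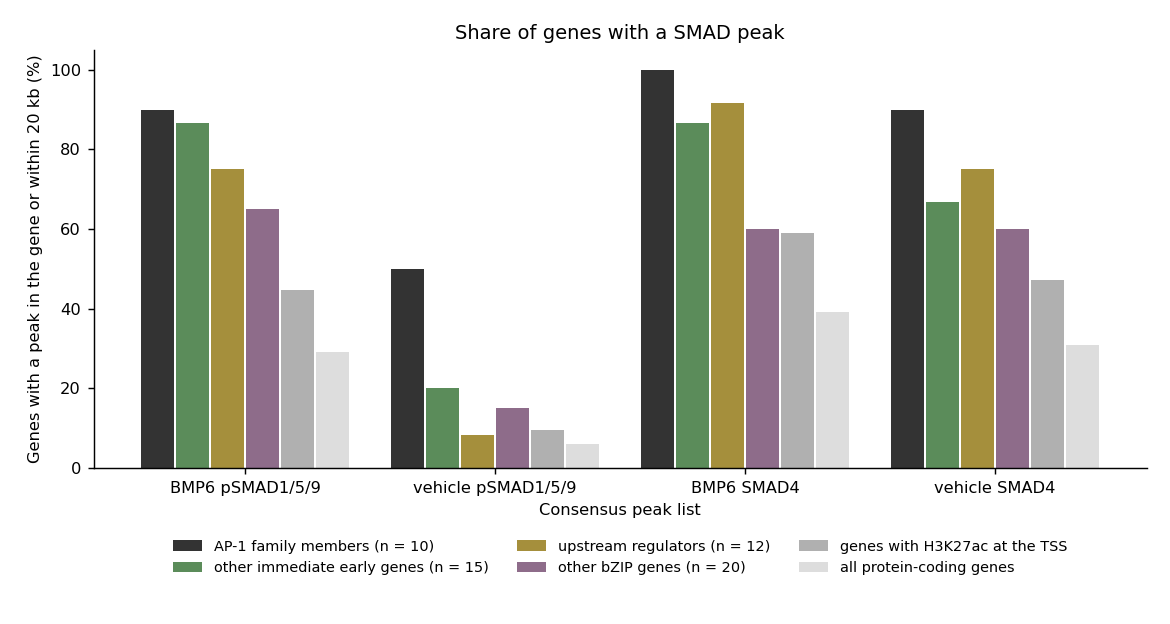
Percentage of genes with at least 1 consensus peak in the gene or within 20 kb of it (vertical axis) in the 4 SMAD lists (horizontal axis), for the AP-1 family members, 3 other groups of genes, the genes with an H3K27ac peak at the TSS and all protein-coding genes. The members stand at 9 of 10 and 5 of 10 genes for pSMAD1/5/9 with BMP6 and vehicle and at 10 and 9 of 10 for SMAD4.

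The signal of the strongest peak of each bound gene was compared next. The strongest pSMAD1/5/9 peak of BMP6-stimulated cells lay in the top 10% of the list for 6 of the 9 bound members, against 14.3% of all bound genes. Its median position was 8.09% of the list, and 40.8% over all bound genes. For SMAD4, the strongest peak lay in the top 10% for 5 of 10 members with BMP6 (16.5% of bound genes) and for 5 of 9 with vehicle (15.3%), with medians of 7.83% and 9.78% against 36.0% and 38.7%. The 5 with vehicle include Atf3, at 9.78% in the consensus but at 10.7% and 10.2% in the columns. In the vehicle pSMAD1/5/9 list, 1 of 5 members had a peak in the top 10% (10.8% of bound genes), and the median was 31.1% against 47.8%. A gene with several peaks has more chances of a strong one, and the members had a median of 2.0 pSMAD1/5/9 and 4.0 SMAD4 peaks with BMP6, where the genes bound had 1.0.

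**Figure D2:**
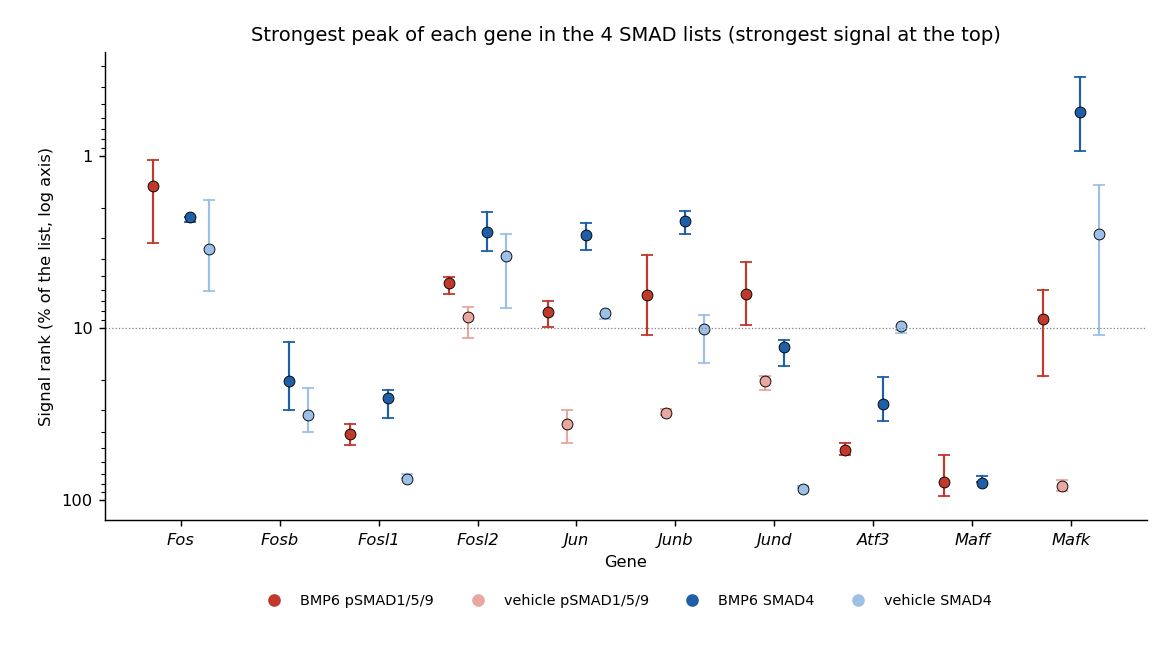
Signal rank of the strongest peak of each gene in the 4 SMAD lists, as a percentage of the peaks in the list on a log axis with the strongest peaks at the top. Circles are the consensus peak, the horizontal ticks joined by a line are the same peak ranked in each of the 2 replicate columns, and the dotted line marks 10%. The circles of Fos, Fosl2, Jun, Junb and Mafk lie above the line for both proteins with BMP6, and that of Atf3 for SMAD4 with vehicle only. Both ticks of Atf3 there, at 10.7% and 10.2%, lie below the line, as do some single ticks of other genes.

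Among the FOS genes, Fos (ENSMUSG00000021250.15; chromosome 12, 85520658 to 85524047, plus strand, 4 exons) had the strongest pSMAD1/5/9 peak of all members. It lay 18795 bp upstream of the TSS, ranked 110 of 7339 in the consensus, and 78 and 236 in the first and second column. No other protein-coding TSS was nearer to it than that of Fos. At the TSS and 1713 bp upstream of it, 2 weaker pSMAD1/5/9 peaks ranked 3269 and 3005. In vehicle-treated cells no pSMAD1/5/9 peak was listed at Fos.

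SMAD4 was present at the distal Fos site in both conditions. Its summit lay 18649 bp upstream of the TSS with BMP6, at rank 290 of 12860 (313 and 290 in the columns), and 18675 bp upstream with vehicle, at rank 297 of 8577 (523 and 155). The columns of the conditions overlapped, so that no difference in SMAD4 was visible at this site, whereas pSMAD1/5/9 was listed there with BMP6 only. At the Fos TSS, a SMAD4 peak at rank 3001 was listed with BMP6 and none with vehicle. Conversely, a vehicle SMAD4 peak 1550 bp upstream of the TSS, at rank 6863 of 8577, had no SMAD4 counterpart with BMP6. It overlapped the pSMAD1/5/9 peak of BMP6-stimulated cells at rank 3005.

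Fosl2 (ENSMUSG00000029135.12; chromosome 5, 32292707 to 32315186, plus strand, 4 exons) encodes FRA2, which lacks the strong activation domain of FOS. Its strongest pSMAD1/5/9 peak spanned the TSS in both conditions. With BMP6 the summit lay 476 bp into the gene at rank 404 (466 and 371 in the columns), and with vehicle it lay 237 bp into the gene at rank 82 of 949 (72 and 108). The vehicle peak was the best ranked of the 5 that members had in that list. SMAD4 ranked 358 (460 and 274) at this TSS with BMP6 and 329 (245 and 660) with vehicle. The promoter of Fosl2 was therefore near the top of all 4 SMAD lists.

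Fosl1 (ENSMUSG00000024912.7; chromosome 19, 5497575 to 5505974, plus strand, 4 exons) encodes FRA1. Its pSMAD1/5/9 peaks were weaker, at rank 3011 with a summit 2449 bp upstream of the TSS (2651 and 3522 in the columns) and at rank 5488 farther upstream, and neither was listed with vehicle. SMAD4 had 5 peaks with BMP6 and 1 with vehicle. The strongest with BMP6 lay 17296 bp upstream of the TSS at rank 3287 (2945 and 4274 in the columns), nearest to Drap1. The region of Fosl1 also holds the TSS of Ccdc85b, Ctsw, Efemp2 and Fibp, and 4 of its 5 SMAD4 peaks had another gene as the nearest, namely Drap1, Ctsw or Efemp2. At the single SMAD4 site shared by both conditions, 2204 bp upstream of the TSS with BMP6, the rank was 3563 of 12860 (5178 and 1985 in the columns) with BMP6 and 6408 of 8577 (6065 and 6369) with vehicle.

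Fosb (ENSMUSG00000003545.4; chromosome 7, 19036621 to 19043976, minus strand, 4 exons), another immediate early gene, was the only member without a pSMAD1/5/9 peak in either condition. SMAD4 was listed at 4 sites with BMP6, of which the strongest, 6755 bp upstream of the TSS, ranked 2622 (3813 and 1547 in the columns). With vehicle 3 sites were listed, and the strongest, 6577 bp upstream, ranked 2745 (3460 and 1903). These values overlapped between the conditions, as did those at the promoter, where SMAD4 ranked 6900 with BMP6 and 5088 with vehicle. The vehicle site 10001 bp upstream, at rank 7387, had no SMAD4 counterpart with BMP6. The BMP6 sites 18755 and 27400 bp downstream of the TSS had none with vehicle.

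Of the JUN genes, Junb (ENSMUSG00000052837.9; chromosome 8, 85703539 to 85705347, minus strand, 1 exon) held the most peaks of all members. JUNB can restrain JUN, and in muscle it is known for a part in the maintenance of fibre size. There were 6 pSMAD1/5/9 and 9 SMAD4 peaks with BMP6, and 1 and 6 with vehicle. The region of Junb also holds the TSS of Gm49661, Hook2, Prdx2 and Rnaseh2a. Of the SMAD4 peaks with BMP6, those 6151, 6889 and 11709 bp upstream of the TSS had Hook2 as the nearest gene. As many pSMAD1/5/9 peaks as at Junb were found at 0.575% of all genes, and as many SMAD4 peaks at 0.437%.

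The strongest pSMAD1/5/9 peaks of Junb lay 1394 bp upstream of the TSS at rank 472 (807 and 275) and 2584 bp upstream at rank 590 (1105 and 290). The second column placed both nearer to the top than the first. Another site lay 2101 bp downstream of the TSS, behind the 3′ end of the gene, at rank 2108, and it was the only one listed with vehicle, at rank 295 of 949. Farther upstream, at 6946 bp, a peak at rank 2644 was nearer to the TSS of Hook2 than to that of Junb. Its window held 3 copies of TGACTCA, the largest number at any pSMAD1/5/9 summit of the members.

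SMAD4 at Junb was nearer to the top of the list with BMP6 at 5 of 5 sites that had a counterpart, in both columns. The farthest of these sites, 6889 bp upstream of the TSS, had Hook2 as the nearest gene. At the site 2620 bp upstream of the TSS the ranks were 309 (366 and 269) of 12860 with BMP6 and 1476 (2141 and 932) of 8577 with vehicle. At the site 1478 bp upstream they were 621 (655 and 606) and 3108 (2377 and 5068), and behind the gene 355 (358 and 396) and 865 (721 and 1360). At the TSS, a SMAD4 peak at rank 2516 and a pSMAD1/5/9 peak at rank 3940 were listed with BMP6 and not with vehicle.

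Jun (ENSMUSG00000052684.6; chromosome 4, 94937271 to 94940459, minus strand, 1 exon), the name-giving gene of its group, had 1 pSMAD1/5/9 peak in each condition, at the promoter. With BMP6 the summit lay 55 bp upstream of the TSS at rank 594 of 7339 (724 and 509), and with vehicle 198 bp upstream at rank 341 of 949 (283 and 438). SMAD4 at the same promoter ranked 372 (451 and 317) of 12860 and 702 (761 and 713) of 8577. Although the list was longer with BMP6, the SMAD4 peak of the Jun promoter stood at a lower rank number in both columns, that is, nearer to the top.

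Jund (ENSMUSG00000071076.9; chromosome 8, 71151599 to 71153265, plus strand, 1 exon) is the JUN gene that many resting cells express. Its promoter carried pSMAD1/5/9 in both conditions, 232 bp upstream of the TSS at rank 463 (709 and 304) with BMP6 and 186 bp upstream at rank 194 of 949 (180 and 217) with vehicle. SMAD4 there stood at rank 1642 (1507 and 2140) of 12860 with BMP6. With vehicle, SMAD4 was listed at rank 7376 (7046 and 7276) of 8577, close to the end of the list. As a percentage of the list this was 12.8% against 86.0%, a wider gap than at any other site that members shared between conditions. However, the SMAD4 summit lay 132 bp upstream of the TSS with BMP6 and 130 bp into the gene with vehicle, 262 bp apart. The peaks, 71151015 to 71151795 with BMP6 and 71151541 to 71151861 with vehicle, overlapped only in part. The gap thus compares peaks whose summits did not coincide.

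Atf3 (ENSMUSG00000026628.15; chromosome 1, 190902493 to 190915537, minus strand, 4 exons) encodes a stress-induced factor that often represses its targets. It had a single site, at the promoter, for each protein. pSMAD1/5/9 was listed there with BMP6, 206 bp upstream of the TSS at rank 3746 (3421 and 4021), and not with vehicle. For SMAD4 the order was the opposite of that at Junb and Jund, since the peak ranked 3559 (4435 and 2468) of 12860 with BMP6 and 839 (919 and 875) of 8577 with vehicle. The columns of the conditions did not overlap. Of the members, Atf3 was the only one whose strongest SMAD4 site stood nearer to the top with vehicle in both columns.

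The small MAF proteins lack an activation domain and pair with other leucine zipper proteins. Mafk (ENSMUSG00000018143.12; chromosome 5, 139777264 to 139788408, plus strand, 3 exons) had the best ranked SMAD4 peak of all members, in an intron 3656 bp from the TSS. It ranked 72 (120 and 45) of 12860 with BMP6 and 245 (126 and 945) of 8577 with vehicle. The pSMAD1/5/9 peak at this intronic site ranked 647 (441 and 1387) with BMP6 and had no counterpart with vehicle. The promoter of Mafk held weaker peaks, with pSMAD1/5/9 at rank 5727 and SMAD4 at rank 7908 with BMP6, and none of either with vehicle. The only pSMAD1/5/9 peak of Mafk in the vehicle list lay 30098 bp from the TSS, beyond the 3′ end, at rank 779 of 949, and was nearer to the TSS of Gm26938.

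Maff (ENSMUSG00000042622.16; chromosome 15, 79231720 to 79243276, plus strand, 3 exons) stood at the other end of the lists. Its only pSMAD1/5/9 peak ranked 5758 (6934 and 3989) with BMP6, lay 19212 bp upstream of the TSS and was 91 bp from the TSS of Pla2g6. SMAD4 had 4 weak peaks with BMP6, of which the strongest ranked 10170 (10101 and 9250) of 12860, and none with vehicle. For pSMAD1/5/9, Maff thus counted as bound only because the region searched reached a neighbouring gene. Its own promoter held a SMAD4 peak at rank 10229 with BMP6.

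**Figure D3:**
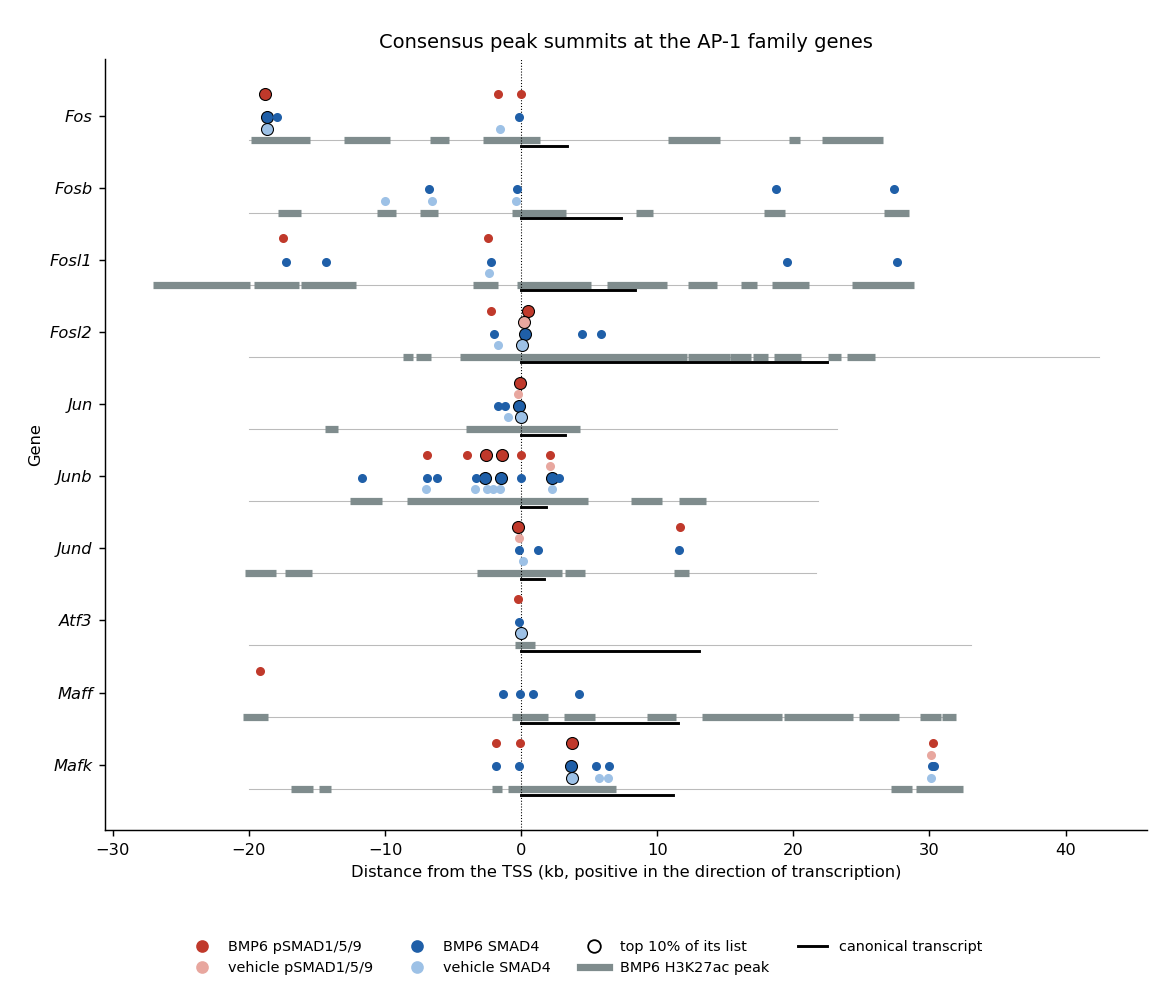
Position of the pSMAD1/5/9 and SMAD4 summits at each gene (vertical axis), as distance from the TSS in kb in the direction of transcription (horizontal axis). Large outlined circles are peaks in the top 10% of their list, small circles are other peaks, grey bars are H3K27ac peaks of BMP6-stimulated cells, black lines are canonical transcripts and thin lines are the regions searched. The strongest sites lie at the TSS of Fosl2, Jun and Jund, around Junb, inside Mafk and 18795 bp upstream of Fos.

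Over all members, 10 of the 22 pSMAD1/5/9 summits with BMP6 lay within 2 kb of the TSS, and for 17 the member was the gene with the nearest TSS. For SMAD4 with BMP6 these counts were 17 and 31 of 43. With BMP6, 20 of the 22 pSMAD1/5/9 peaks shared sequence with a listed SMAD4 peak (90.9%), and the exceptions were the Fos site 1713 bp upstream of the TSS and the Maff site. In the whole list, 73.2% did (Wilson 95% interval 72.2 to 74.2%). The summits of the overlapping pairs lay between 2 and 660 bp apart at members, with a median of 103 bp, against 78.0 bp in the whole list.

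Sites were also compared with the lists of vehicle-treated cells. With the vehicle SMAD4 list, 14 of the 22 pSMAD1/5/9 peaks overlapped (63.6%), against 57.2% of the list (56.1 to 58.4%). An overlap with a vehicle pSMAD1/5/9 peak was found for 5 (22.7%), against 11.4% (10.7 to 12.2%). SMAD4 with vehicle together with pSMAD1/5/9 listed with BMP6 only was found at 9 of the 22 sites (40.9%), and at 47.2% of the list (46.0 to 48.3%).

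Ranks in lists of different length were compared at the shared sites. Of 21 SMAD4 sites at members with a counterpart, 9 stood nearer to the top with BMP6 in both columns, as a percentage of the list, 3 nearer to the top with vehicle, and 9 overlapped. In the whole list, 36.2% of 5852 sites stood nearer to the top with BMP6 and 16.3% with vehicle. The 9 sites were the 5 of Junb and those at Fosl1, the Jun and Jund promoters and the Mafk intron. The 3 sites were at Atf3, 1699 bp upstream of Jun and behind Mafk, and the latter 2 shared their vehicle peak with a neighbouring site.

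A longer list moves its strong peaks to a lower percentage, so the ranks were taken again among the shared sites alone, a setting chosen after the data had been seen. For SMAD4 the counts at members were again 9 and 3, and in the whole list the shares became 23.8% and 26.3%. For pSMAD1/5/9, 4 of the 5 shared sites stood nearer to the top with BMP6 by the whole lists, where 66.6% of 839 sites did. Among shared sites alone only 1 did, the site behind Mafk, and 2 stood nearer to the top with vehicle, at the Fosl2 promoter and behind Junb. The lists held 7339 and 949 peaks. At 3 of the 4 sites, BMP6 no longer stood nearer to the top in both columns once only shared sites were ranked.

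**Figure D4:**
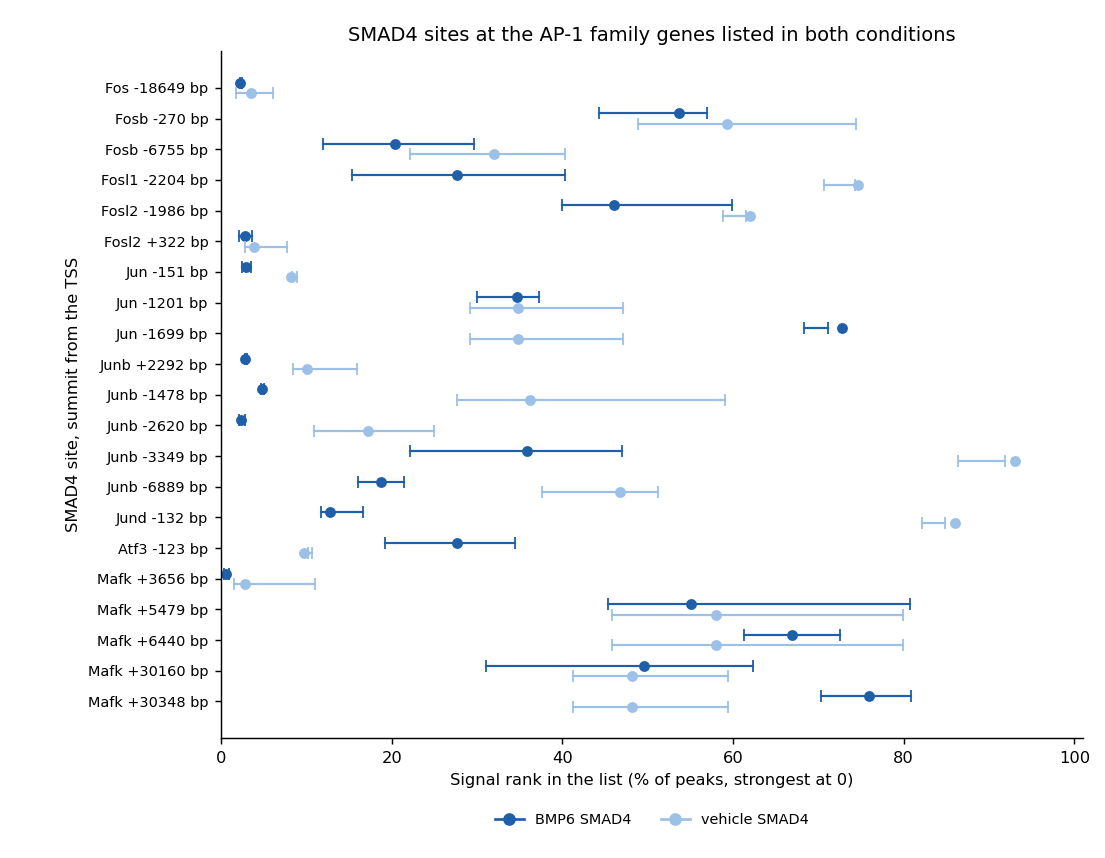
Signal rank of the 21 SMAD4 sites listed in both conditions, as a percentage of the peaks in each list (horizontal axis, strongest peaks at 0), by gene and distance of the BMP6 summit from the TSS (vertical axis). Circles are consensus peaks and ticks joined by a line are the 2 replicate columns, and a circle can lie outside its ticks because the consensus was ranked on its own. The BMP6 values of all Junb sites lie to the left of the vehicle values, and those of Atf3 lie to the right.

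H3K27ac, which marks active promoters and enhancers, was listed at all members in both conditions (74.8% of all genes with BMP6 and 73.4% with vehicle). The TSS lay in an H3K27ac peak at all 10 members with BMP6, against 51.4% of genes, and at 9 with vehicle, against 49.5%. The exception was Fosb, where a vehicle peak of 600 bp ended 25 bp from the TSS. All 22 pSMAD1/5/9 peaks of BMP6-stimulated cells overlapped H3K27ac in both conditions (98.2% and 97.5% of the list). Of the 43 SMAD4 peaks with BMP6, 42 did (95.7% and 94.0% of the list), without the Maff site 1295 bp upstream of the TSS.

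The broadest domains lay over Fosl2 and Junb. The Fosl2 TSS lay in a peak of 16660 bp with BMP6 and 15100 bp with vehicle, and the Junb TSS in peaks of 13300 and 13200 bp, where the median of TSS peaks was 2380 and 2200 bp. At Atf3 the peak was 1470 and 1600 bp wide and ranked 26807 of 78050 and 28740 of 67790, the weakest TSS peak of the members with BMP6. At Jun the TSS peak stood at rank 928 with BMP6 and 1004 with vehicle. Widths were multiples of 70 bp in the BMP6 list and of 100 bp in the vehicle list, so small differences in width between the conditions cannot be told apart from this step. At Mafk the TSS peak stood at 2.47% of the list with BMP6 and 14.2% with vehicle, but the columns, 17.2% and 1.05% against 8.29% and 26.6%, overlapped.

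In windows of 200 bp around the pSMAD1/5/9 summits with BMP6, TGACTCA was found in 4 of 22 at members (18.2%, at Fosl1, Fosl2 and Junb) and in 15.5% of the list. TGACGTCA was found in 1, at Jund, against 0.927% of the list. The CArG box stood in 2 windows, both at Junb, against 1.42%. Either of the SMAD sites GGAGCC and its relative GGCGCC, which cannot overlap each other, was found in 10 windows (45.5%) at 7 members, against 30.2%. CAGCTG was found in 7 (31.8%), against 31.1%, and GTCTAGAC in none, against 0.518%. TGACATCA was found in 2, at Fos and Jun, against 1.57%, and TTACCTCA in none, against 0.640%, since the Jun match lies outside the window centred on this summit.

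For SMAD4 with BMP6, TGACTCA was found in 4 of 43 windows (9.30%) at members and in 15.1% of the list. With windows of 400 bp the shares were 16.3% and 21.9%, and over whole peaks 20.9% and 26.2%. Several windows belong to the same gene and some overlap each other, so these shares are descriptions. In the promoters, from 250 bp before to 50 bp after the TSS, TGACTCA was found at no member and at 4.70% of genes. TGACGTCA was found at the promoters of Jund and Maff (2.45% of genes), and both TGACATCA and TTACCTCA at that of Jun (3.09% and 0.708%).

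The groups of genes that act with AP-1 were counted in the same way. Over all genes, the shares with a pSMAD1/5/9 peak were 29.1% with BMP6 and 5.97% with vehicle. For SMAD4 they were 39.3% and 30.8%. Of 15 other immediate early genes, 13 had a pSMAD1/5/9 peak with BMP6 and 3 with vehicle, and 13 and 10 had a SMAD4 peak. The best ranked of these in both BMP6 lists was Klf10, a TGF-β-inducible repressor, at ranks 134 and 89. Of 12 genes upstream of AP-1 (MAP kinases, serum response factor with its cofactors, and a phosphatase), 9 had a pSMAD1/5/9 peak with BMP6 and 1 with vehicle, and their best ranked gene was Dusp1, a MAP kinase phosphatase, at rank 400. The median of their best ranks was 66.0% of the list, against 8.09% for the members, and the median of the other immediate early genes was 16.2%. SMAD4 was listed at 11 of the 12 upstream genes with BMP6 and at 9 with vehicle. For SMAD4 the medians of the best ranks were 7.83% for the members, 12.1% for the other immediate early genes and 27.4% for the upstream genes with BMP6. With vehicle they were 9.78%, 9.20% and 30.7%, and the other immediate early genes thus stood slightly nearer to the top than the members.

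Of 20 other genes of the leucine zipper group, 13 had a pSMAD1/5/9 peak with BMP6, 3 with vehicle, and 12 had a SMAD4 peak in each condition. Atf7 was the best ranked of them for pSMAD1/5/9, at rank 311, and Jdp2, which encodes a repressor that pairs with JUN, for SMAD4, at rank 274.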

How the data were processed

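Groups were the antibody and treatment that the labels give. According to the methods and processing notes, the authors cut the libraries of an antibody to the same number of reads, mapped these with Bowtie2 2.5.4 to GRCm39, used SAMtools 1.21 and bedtools 2.31.1 for filtering and conversion, called peaks per biological replicate with JAMM, and combined both replicates with IDR at a threshold of 0.05. The deposited signal is a score of the peak caller without a fixed range, and the consensus value is the sum over the 2 replicate columns. The IDR of each peak is deposited as its −log10. Positions of the single replicate peaks (6 columns per list) were not used.

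Genes were taken from GENCODE M39 on GRCm39, as 1 canonical transcript for each of 21757 protein-coding genes outside the mitochondrial genome, because the RefSeq tables at hand were on another build. A peak was counted with an overlap of at least 1 bp. Signal was ranked within each list, over the consensus and over each replicate column. Motifs were searched in 200 bp around each summit. Overlaps and motif searches were tested on simulated data. Python 3.11.15, numpy 2.4.6, pandas 2.3.3, scipy 1.17.1 (Wilson intervals), pysam 0.24.0 and matplotlib 3.10.9 were used. No test was run, since each list is 1 consensus per condition, and intervals cover counting error only.

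All 10 members were named, with the strongest peak per list and the peak nearest to the TSS. Genes of the 3 other groups were named only when best ranked in their group or lying in the region of a member. The members, the lists and the motifs were chosen with earlier results of these data known. Alternatives covered the IDR threshold, the region, the transcripts, the nearest TSS, the overlap, the motif window and each replicate column, and 2 more (ranks among shared sites, and genes with H3K27ac at the TSS) and 2 motifs were added with the values in view. The libraries without primary antibody, differential binding and expression were not analysed here, and some marker genes are not reported here.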

Additional observations from a re-analysis of the deposited data

How the results depend on the processing

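At the stricter IDR of 0.01, 13 pSMAD1/5/9 and 23 SMAD4 peaks remained listed at the members with BMP6, and 2 and 10 with vehicle. Of the whole lists, 50.1% of the pSMAD1/5/9 and 49.2% of the SMAD4 peaks remained with BMP6, and 14.9% and 41.7% with vehicle. Members with a vehicle pSMAD1/5/9 peak then numbered 2, Fosl2 and Jund, instead of 5. Within 2 kb of the TSS there were 13 pSMAD1/5/9, 19 SMAD4 and 12 H3K27ac peaks with BMP6 and 11 SMAD4 and 14 H3K27ac peaks with vehicle. Counting only peaks whose nearest TSS was that of the member left 35 H3K27ac peaks with BMP6 and 35 with vehicle. When an overlap of 50% of both peaks was required, 68.2% of the BMP6 pSMAD1/5/9 peaks at members overlapped BMP6 SMAD4 and 40.9% vehicle SMAD4, 30.2% of the BMP6 SMAD4 peaks overlapped vehicle SMAD4, and 75.0% of the BMP6 H3K27ac peaks overlapped vehicle H3K27ac. Among shared sites alone, 1 pSMAD1/5/9 site instead of 4 stood nearer to the top with BMP6. The cause was not tested. The span of all basic transcripts moved no count by over 1.5 times. The share of members' windows with TGACTCA, with 200 bp, 400 bp and the whole peak, was 18.2%, 18.2% and 22.7% for BMP6 pSMAD1/5/9, 0%, 0% and 20.0% for vehicle pSMAD1/5/9, 9.30%, 16.3% and 20.9% for BMP6 SMAD4 and 9.09%, 22.7% and 27.3% for vehicle SMAD4, all within wide Wilson intervals. With 1 replicate column alone, 10 best ranks were labelled as moved without the first column and 43 were not. Without the second column these counts were 9 and 44. A rank labelled as moved could change by less than the columns differed. At Fos, the best pSMAD1/5/9 rank with BMP6 went from 110 to 236, with the columns at 78 and 236. No paired analysis was possible because the columns carry no replicate number and no test was run. The unknown number of reads per peak and the single consensus per condition limit every comparison between conditions.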
